A study of Mus musculus with 6 samples.

Results

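The axonemal dynein arms and the machinery that builds them were examined across the lungs of WT and *Tnrc6a* null mouse embryos. The list names 37 genes in 7 role groups, and a gene counted as measured when at least 1 probe set was annotated to its symbol and to no other, older and newer symbols being matched by Entrez ID. Of the 37 genes, 36 were measured, out of 19938 genes on the array. *Ccdc103*, which helps to attach dynein to the axoneme, was not measured, because its probe set was annotated to *Fam187a* as well.

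Lungs were taken at E18.5 from embryos on a C57Bl/6 background, 3 WT and 3 homozygous for a gene trap that places a β-galactosidase cassette in *Tnrc6a*, which encodes GW182, a scaffold of the miRNA silencing complex. WT embryos came from the same litters as mutants, and RNA of the whole lung of 1 embryo was hybridised to each Affymetrix whole-transcript mouse gene array. The line had been backcrossed to C57Bl/6, the trap is inherited and so present in all cells, and the labels name no other allele or agent. The comparison asks whether the genes of the ciliary motor depend on *Tnrc6a* in the developing lung.

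Motile cilia of the airways are carried by multiciliated cells (MCCs) and beat because dynein arms, anchored in rows on the doublet microtubules of the axoneme, walk along the neighbouring doublet. Outer arms set mainly the power of the beat and inner arms its waveform. The arms are put together in the cytoplasm by dedicated assembly factors before they enter the cilium, and loss of arms or of their assembly factors causes primary ciliary dyskinesia. In RNA of a whole lung, fewer MCCs and less RNA per MCC cannot be told apart.

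The values as deposited are logarithms, to base 2 according to the labels. The base could not be checked against scanner signals, so every result is a difference on that scale (null less WT) and no fold is given. Values lay between 0.29 and 12.49, and array medians between 4.98 and 5.03. *Tnrc6a* read 7.38, 7.13 and 7.18 in WT replicates 1 to 3 and 5.45, 5.04 and 5.40 in null replicates 1 to 3. It fell by 1.93 (SE 0.128, limma adjusted p = 0.00312) and was the only gene of 19938 that passed an adjusted p of 0.05. Across genes, lungs correlated at 0.979 to 0.993 by pairs, and WT replicate 1 correlated with null replicate 3 at 0.992. No batch that these lungs share is named in the sources used here.

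No gene of the dynein list passed the test. At an adjusted p under 0.05, 0 of 36 members were called by limma, beside 0.00502% of all genes, and the adjusted p of the members ran from 0.89 to 0.997. At an unadjusted p under 0.05 the count was also 0 of 36, beside 5.42% of all genes (2.96% lower and 2.46% higher in null lungs), and the smallest p was 0.1, for *Tekt2*. By the sign of the difference alone 20 members were lower and 16 higher in null lungs, beside 49.8% of all genes lower. Here and in the role groups lower and higher count signs only, and for 26 of the 36 members the difference was under its SE. Of these 26, 22 changed sign under at least 1 of 18 other settings. Differences ran from -0.38 for *Dnah7a* to 0.19 for *Armc4*, with a median of -0.008, against a median of 0 over all genes. The median size of the difference, whichever its sign, was 0.0633 for the members and 0.0967 for all genes. The spread between lungs of a genotype was also smaller for the members, with a median SD of 0.122 (n = 3 a genotype) against 0.154 over all genes. Neither comparison was matched for signal, and most members lay at middle signal, so neither can be read as a trait of the list.

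**Figure D1:**
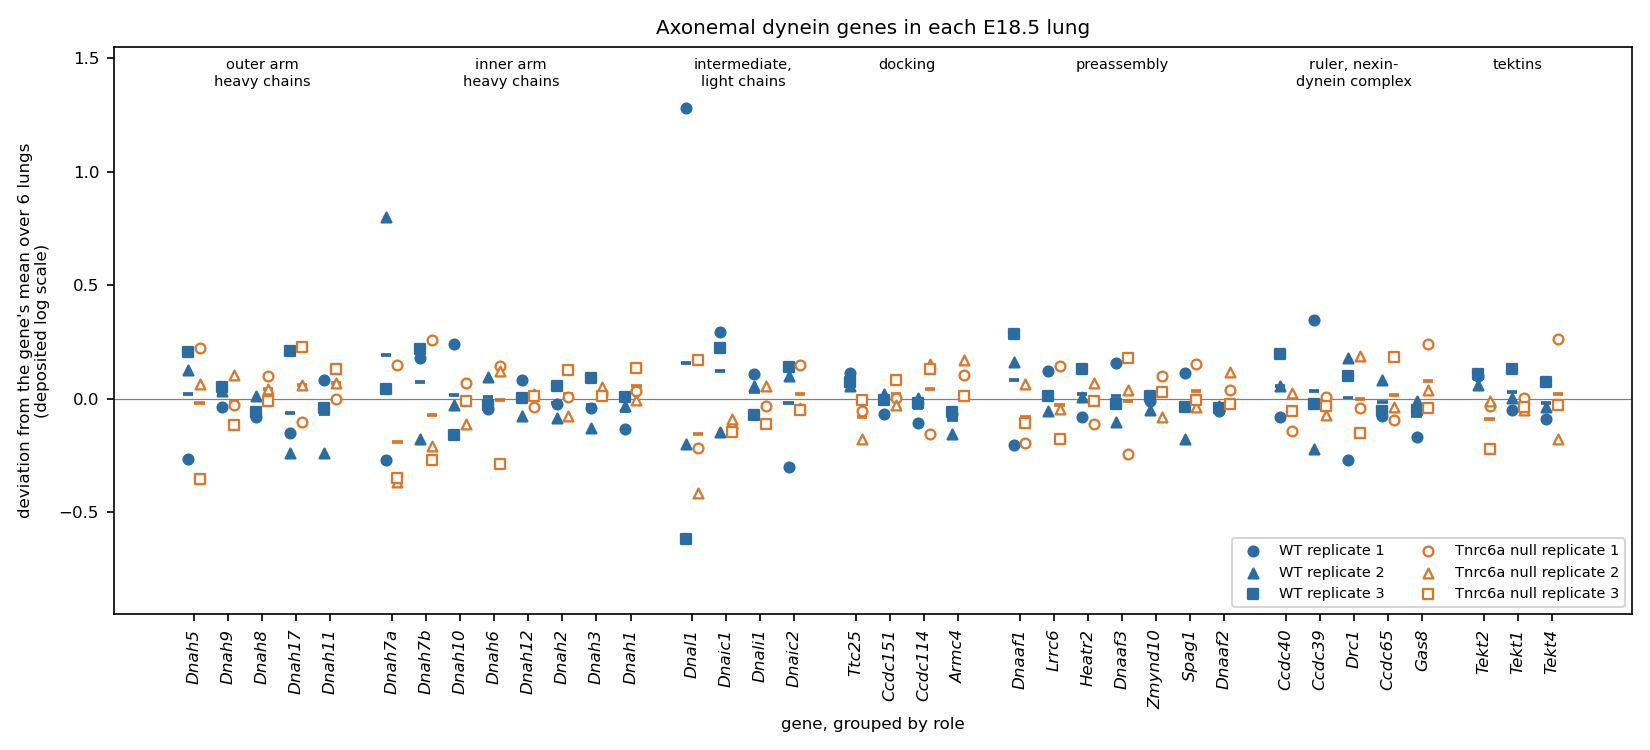
Deviation of each of the 36 measured genes from its own mean over the 6 lungs, on the deposited log scale, with genes grouped by role along the horizontal axis. Filled blue symbols are WT lungs, open orange symbols are *Tnrc6a* null lungs, symbol shapes mark the replicate and short bars the genotype means. The genotypes overlap for 32 genes, and *Dnal1* in WT replicate 1 and *Dnah7a* in WT replicate 2 lie farthest from their gene's mean.

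The 95% intervals were taken gene by gene, without the adjustment over genes used for the calls. They therefore do not give the sizes that the adjusted test could miss. *Rsph1*, outside the list, had an interval of -0.69 to -0.22 and still did not pass (limma adjusted p = 0.89). The half-width of the 95% interval had a median of 0.255 and ran from 0.184 to 0.957. The whole interval lay within 0.3 of 0 on either side for 11 members, within 0.4 for 28, within 0.5 for 32 and within 1 for 34. The members outside 0.5 were *Dnah7a*, *Dnah7b*, *Dnaic1* and *Dnal1*, and of these *Dnah7a* (-1.01 to 0.25) and *Dnal1* (-1.27 to 0.65) passed beyond 1. The difference of *Tnrc6a* itself was -1.93. All these bounds are for the signal of a whole lung, not of MCCs alone, and signal over background was not measured.

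**Figure D2:**
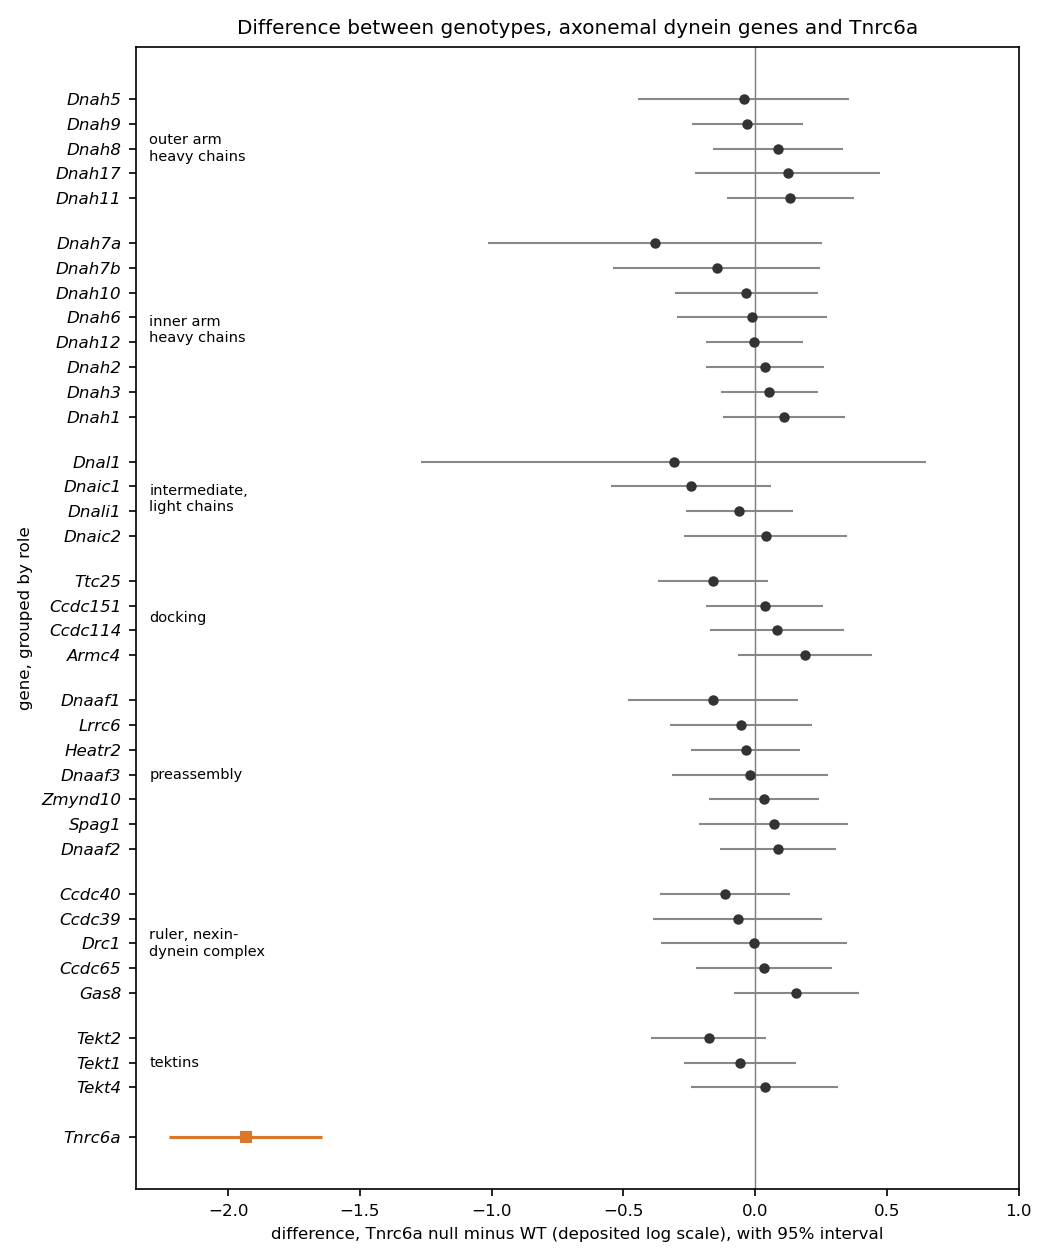
Difference between genotypes, null less WT in deposited log units, for the 36 measured genes by role and for *Tnrc6a*. Points are the fitted differences and lines their 95% intervals. The interval of every dynein gene covers 0, whereas that of *Tnrc6a* (orange) lies around -1.93.

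In 4 of 36 members (11.1%) the genotypes did not overlap, beside 10.2% of all genes (5.51% lower and 4.67% higher in null lungs). Every null lung was below every WT lung for *Tekt2* and *Ttc25*, and above for *Armc4* and *Dnaaf2*. The members' share lies near that of all genes. No single lung carried the list. The highest of the 6 values fell in WT replicates 1 to 3 for 7, 1 and 6 members and in null replicates 1 to 3 for 10, 5 and 7. The lowest fell there for 9, 9 and 2 members in WT and for 5, 4 and 7 in null lungs.

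The members are described by role. The sign of a role group's median held under all settings tried for the intermediate and light chains and for the tektins, and changed under at least 1 setting in the other 5 of 7 groups.

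The 5 heavy chains of the outer arm are the largest motor subunits of the row that drives the beat. Of these, 2 were lower and 3 higher in null lungs, with a median difference of 0.087. *Dnah11*, the proximal outer arm chain of airway cilia, read 6.05, 5.73 and 5.93 in WT and 5.97, 6.04 and 6.10 in null lungs, a difference of 0.13 (SE 0.106). The null lungs lay within or just above the WT range, with WT replicate 2 lowest. *Dnah17*, an outer arm chain of sperm, read 4.34, 4.25 and 4.70 in WT and 4.39, 4.55 and 4.72 in null lungs, a difference of 0.12 (SE 0.154). For *Dnah8*, another chain known from sperm, the values were 4.40, 4.49 and 4.42 in WT and 4.58, 4.52 and 4.47 in null lungs, a difference of 0.09 (SE 0.108). Its highest WT lung and lowest null lung crossed. The chains that make up most outer arms of airway cilia were close to 0, at -0.04 for *Dnah5* and -0.03 for *Dnah9*.

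Inner arm heavy chains were measured for 8 genes, 5 lower and 3 higher, with a median difference of -0.008. *Dnah7a* had the lowest difference of the whole list, yet its WT lungs were far apart. It read 3.10, 4.17 and 3.41 in WT and 3.52, 3.0 and 3.02 in null lungs, a difference of -0.38 (SE 0.278), and without WT replicate 2 the difference was -0.075. Its near-identical neighbour *Dnah7b* read 5.08, 4.72 and 5.12 in WT and 5.16, 4.69 and 4.63 in null lungs, a difference of -0.15 (SE 0.172). These paralogs are uncertain, since probes can be shared among the *Dnah7* copies, and probe sets annotated to several of them were not used. *Dnah1*, a chain required for sperm motility, read 4.93, 5.03 and 5.07 in WT and 5.10, 5.06 and 5.20 in null lungs, a difference of 0.11 (SE 0.102). One null lung stood below the highest WT lung. By their brightest probe sets the remaining inner arm chains lay near 0, at 0.05 for *Dnah3*, 0.04 for *Dnah2*, -0.03 for *Dnah10*, -0.01 for *Dnah6* and -0.003 for *Dnah12*. *Dnah2* and *Dnah10* form the double-headed inner arm, and the others belong to single-headed arms.

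Intermediate and light chains tie the heavy chains to each other and to the doublet, and 3 of the 4 were lower, with a median of -0.152, which was -0.01 when only genes above the median signal were kept. *Dnaic1*, an outer arm intermediate chain, read 5.31, 4.87 and 5.24 in WT and 4.89, 4.93 and 4.87 in null lungs, a difference of -0.24 (SE 0.133). WT replicates 1 and 3 were above all null lungs, while WT replicate 2 lay among them, and without WT replicate 2 the difference was -0.378. Its partner *Dnaic2* was at 0.04. *Dnal1*, a light chain bound to an outer arm heavy chain, was the most variable member, at 6.03, 4.55 and 4.13 in WT and 4.53, 4.33 and 4.92 in null lungs. Its difference of -0.31 (SE 0.42) rested on WT replicate 1, and without that lung it was 0.253. *Dnali1*, a light chain of inner arms, read 6.62, 6.57 and 6.44 in WT and 6.48, 6.57 and 6.40 in null lungs, a difference of -0.06 (SE 0.0897).

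The docking proteins fix the outer arm to its place on the doublet, and of 4 measured 1 was lower and 3 were higher, with a median of 0.06. *Ttc25* read 5.73, 5.67 and 5.69 in WT and 5.56, 5.44 and 5.61 in null lungs, a difference of -0.16 (SE 0.0925). Its null lungs were all below its WT lungs. *Armc4* went the other way, at 4.39, 4.30 and 4.40 in WT and 4.56, 4.63 and 4.47 in null lungs, a difference of 0.19 (SE 0.112). Its null lungs were all above its WT lungs, but the dimmer of its 2 probe sets gave -0.003. *Ccdc114* read 5.44, 5.55 and 5.53 in WT and 5.39, 5.70 and 5.68 in null lungs, a difference of 0.08 (SE 0.112), with null replicate 1 lowest of all. *Ccdc151* was at 0.04.

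Cytoplasmic preassembly factors fold and join dynein subunits with the help of chaperones. Of these, 4 of 7 were lower, with a median of -0.02. *Dnaaf1* read 5.35, 5.72 and 5.84 in WT and 5.36, 5.62 and 5.45 in null lungs, a difference of -0.16 (SE 0.142). WT replicate 1 lay at the bottom with null replicate 1, and the difference without that WT lung was -0.303. *Dnaaf2* read 5.08, 5.10 and 5.09 in WT and 5.17, 5.25 and 5.11 in null lungs, a difference of 0.09 (SE 0.0966). Its WT lungs were within 0.02 of each other, and the lowest null lung stood just above them. *Spag1* read 4.68, 4.39 and 4.53 in WT and 4.72, 4.53 and 4.56 in null lungs, a difference of 0.07 (SE 0.124). The remaining factors were at -0.05 for *Lrrc6*, -0.04 for *Heatr2* (now *Dnaaf5*), 0.03 for *Zmynd10* and -0.02 for *Dnaaf3*.

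The ruler proteins *Ccdc39* and *Ccdc40* set the spacing at which inner arms and radial spokes repeat along the doublet, and the nexin-dynein regulatory complex links neighbouring doublets. In this group 3 of 5 genes were lower, with a median of -0.003. *Gas8*, a subunit of that complex, read 5.79, 5.95 and 5.91 in WT and 6.20, 6.00 and 5.92 in null lungs, a difference of 0.16 (SE 0.104). Only null replicate 3 fell within the WT range. *Ccdc40* read 5.38, 5.52 and 5.66 in WT and 5.32, 5.49 and 5.41 in null lungs, a difference of -0.11 (SE 0.108). *Ccdc39*, which pairs with it, read 6.21, 5.64 and 5.84 in WT and 5.87, 5.79 and 5.83 in null lungs, a difference of -0.07 (SE 0.141), with the highest and the lowest value both in WT. The other subunits of the regulatory complex were at 0.03 for *Ccdc65* and -0.003 for *Drc1*.

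Tektins are filament proteins in the lumen of the doublet microtubules, and 2 of 3 were lower, with a median of -0.057. *Tekt2*, which had the smallest p of the list, read 5.80, 5.76 and 5.81 in WT and 5.67, 5.69 and 5.48 in null lungs, a difference of -0.18 (SE 0.096). Every null lung was below every WT lung, and null replicate 3 was the lowest. *Tekt1* read 5.55, 5.60 and 5.73 in WT and 5.60, 5.55 and 5.56 in null lungs, a difference of -0.06 (SE 0.0934). *Tekt4* read 5.99, 6.04 and 6.15 in WT and 6.34, 5.90 and 6.05 in null lungs, a difference of 0.04 (SE 0.122), and null replicates 1 and 2 stood at its extremes.

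The members were also averaged within each lung. The mean deviation of the 36 genes was 0.015, -0.010 and 0.029 in WT replicates 1 to 3 and 0.016, -0.016 and -0.033 in null replicates 1 to 3. The genotypes overlapped in it, with null replicate 3 lowest. Over all genes the mean deviation was -0.082, 0.025 and 0.031 in WT and 0.025, 0.037 and -0.036 in null lungs. Without *Dnal1*, whose WT replicate 1 value was far above its others, the members' mean was -0.022, -0.005 and 0.048 in WT and 0.023, -0.005 and -0.039 in null lungs.

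Differences on these arrays went with signal over all genes, dim genes tending to be higher in null lungs and bright genes lower. When genes were divided by mean signal into 10 bins of like size, numbered from the dimmest, the median difference went from 0.153 in bin 1 to -0.063 in bin 10. The members avoided both ends, lying in bins 2 to 9 with 28 of 36 in bins 5 to 8, where the medians ran from -0.003 to -0.047. Set against the median of its own bin, a member was lower in 15 cases and higher in 20, and the median member lay 0.017 above it.

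**Figure D3:**
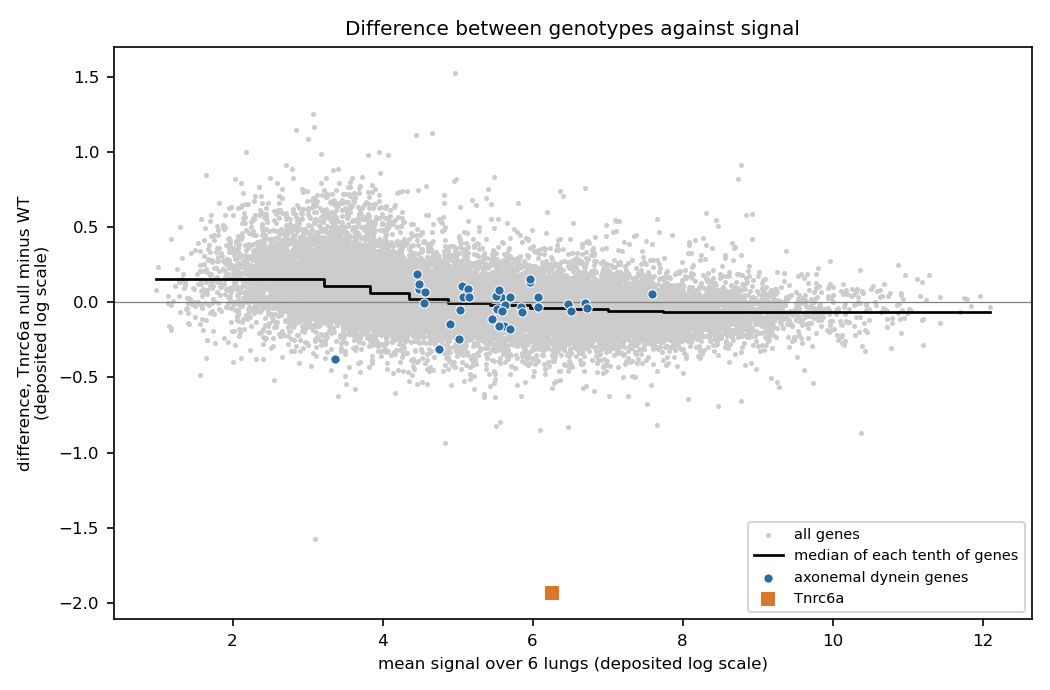
Difference between genotypes (vertical, null less WT) against mean signal over the 6 lungs (horizontal), both on the deposited log scale, for 19938 genes. Grey points are all genes, blue points the 36 dynein genes, the orange square *Tnrc6a*, and the black line is the median in each of 10 bins of genes by signal. The blue points lie within the cloud of all genes, most of them at middle signal.

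Several members were measured by more than 1 probe set, which gives a look at the same transcript that the choice of the brightest set leaves out. This held for 7 members, and 29 had 1 set. *Dnah3* was covered by 33 probe sets, of which 21 were lower and 12 higher, from -0.243 to 0.19 with a median of -0.067, while its brightest set was at 0.05. Mean signals of these sets ran from 2.71 to 7.59. For none of the 33 did the genotypes separate, and the smallest unadjusted p was 0.113. The 5 sets of *Dnah10* ran from -0.033, its brightest, to 0.433, with a median of 0.2. In 1 of the dimmer sets every null lung was above every WT lung. That set read 5.36, 5.31 and 5.33 in WT and 5.40, 5.60 and 5.63 in null lungs. Its difference was 0.21 (limma unadjusted p = 0.0692, adjusted p = 0.916 over probe sets with 1 symbol). *Dnah12* was at -0.003 and 0.28 by its 2 sets, and *Dnah7b* at -0.147 and 0.213. All 3 sets of *Dnah6* were lower, at -0.013, -0.133 and -0.11, and both sets of *Dnah17* higher, at 0.123 and 0.15. For 5 of the 7, *Dnah3*, *Dnah10*, *Dnah12*, *Dnah7b* and *Armc4*, the sign therefore depended on the probe set taken.

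**Figure D4:**
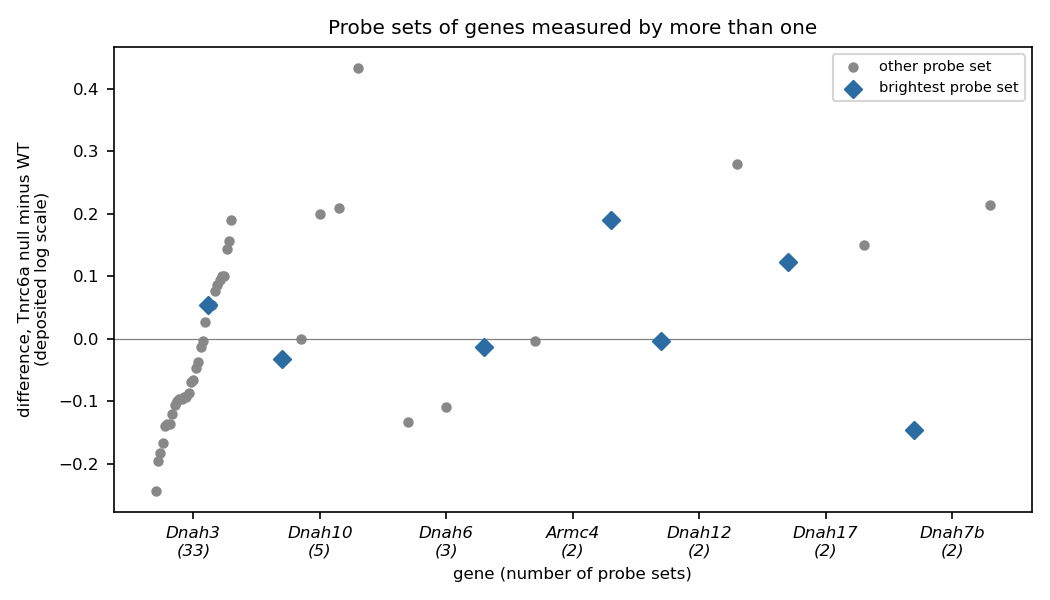
Difference between genotypes, null less WT in deposited log units, for every probe set of the 7 members that had more than 1, with the number of sets in brackets. Blue diamonds mark the brightest set, used for the gene, and grey points the others. The 33 sets of *Dnah3* spread from -0.243 to 0.19 across 0.

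The members are spread over 14 chromosomes, with 7 of 36 on chromosome 11. *Dnah3* is the only one within 10 Mb of *Tnrc6a*. Its difference was 0.05 by its brightest probe set, and the median over its 33 sets was -0.067.

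Promoter sequence was read as a feature the list did not use. RefSeq promoters of GRCm38.p6, from 250 bases before to 50 after the start, were listed for 31 of the 37 genes. As background, RFX factors, which switch on ciliary genes together with FOXJ1, bind an inverted repeat called the X-box. An X-box half-site, GTTGCC on either strand, lay in the promoters of 13 of 31 members (41.9%) and of 14.1% of 27025 genes. The fuller form, GTNNCC and after 2 bases its reverse complement, lay in 4 members (12.9%), namely *Ccdc151*, *Heatr2*, *Tekt4* and *Zmynd10*, and in 2.16% of all genes. The forkhead letters TGTTTAC lay in 1 member, *Dnah17* (3.23%), and in 4.05% of all genes. Once the members' promoters had been read, a further spelling of an inverted repeat was added, GTTNC and after 3 or 4 bases its reverse complement. It lay in 11 of 31 members (35.5%) and in 2.29% of all genes, and as it was picked from the members themselves this excess is a description only. The half-site and the fuller form can cover the same letters as this repeat, so it is not shown to be an element apart from the X-box.

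The windows below show how the repeat reads in members of 4 role groups, 5′ to 3′ on the strand of the gene, with the repeat in capitals.
Tekt2, chr4:126325696-126325725, minus strand: agggggcgGTTGCTCGGCAACcagagccgc
Dnaic1, chr4:41569767-41569796, plus strand: gcctgtcgGTTGCTGGGTAACcgcgtcagg
Dnaic2, chr11:114727378-114727407, plus strand: cggccaggGTTGCTAGGCAACtggtaaact
Dnah7a, chr1:53706820-53706849, minus strand: gccagtttGTTGCTTAGCAACgaatcgacc
Dnaaf2, chr12:69198425-69198454, minus strand: tcccaggcGTTACTATGGCAACaaagcacg

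The window of *Dnah7b* has the same letters as that of *Dnah7a*, so these copies are not separate examples, and the *Dnaaf2* window has the longer gap. Other members with a repeat included *Dnah9*, *Tekt4*, *Ccdc103* and *Ccdc151*. Among the 10 measured members with it, 6 were lower, with a median of -0.022, and among the 20 with a listed promoter and no repeat, 11 were lower, with a median of -0.003. *Tekt2* and *Dnaaf2*, whose genotypes did not overlap in opposite directions, both carry it.

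Genes around the list were read in the same way. Further axonemal dynein and assembly genes, 27 of 27 measured, were lower in 13 cases and higher in 13, with a median of 0. *Nme8*, a thioredoxin-like protein of the outer arm, was the only one at an unadjusted p under 0.05, at 2.56, 2.61 and 2.60 in WT and 3.23, 3.05 and 2.74 in null lungs, a difference of 0.42 (SE 0.178, limma adjusted p = 0.89). It lay in bin 1, the dimmest, where the median difference of all genes was 0.153. Other proteins inside the doublet were lower in 7 of 14 measured, with a median of -0.012. Cytoplasmic dynein, the motor of transport in the cell body and within the cilium, was lower in 6 of 13, with a median of 0.027. Neither held a gene at an unadjusted p under 0.05.

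The transcription factors of MCCs were lower in 4 of 12, with a median of 0.065 and no gene at an unadjusted p under 0.05. *Foxj1*, the main activator of motile cilium genes, read 6.39, 6.51 and 6.59 in WT and 6.48, 6.44 and 6.38 in null lungs, a difference of -0.06 (SE 0.0873, limma adjusted p = 0.937), and the genotypes overlapped. Radial spoke and central apparatus genes, which act on the arms from the middle of the axoneme, were lower in 11 of 13 measured, with a median of -0.033. That count is of signs only, and differences as small as -0.003 are among the lower ones. Many of these genes lay in bins 7 and 8, where the median differences of all genes were -0.037 and -0.047. *Rsph1*, a protein of the spoke head, read 5.71, 5.73 and 5.70 in WT and 5.12, 5.25 and 5.40 in null lungs, without overlap. Its difference of -0.46 (SE 0.103, limma adjusted p = 0.89) did not pass adjustment, and it was the only gene of its list at an unadjusted p under 0.05.

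**Figure D5:**
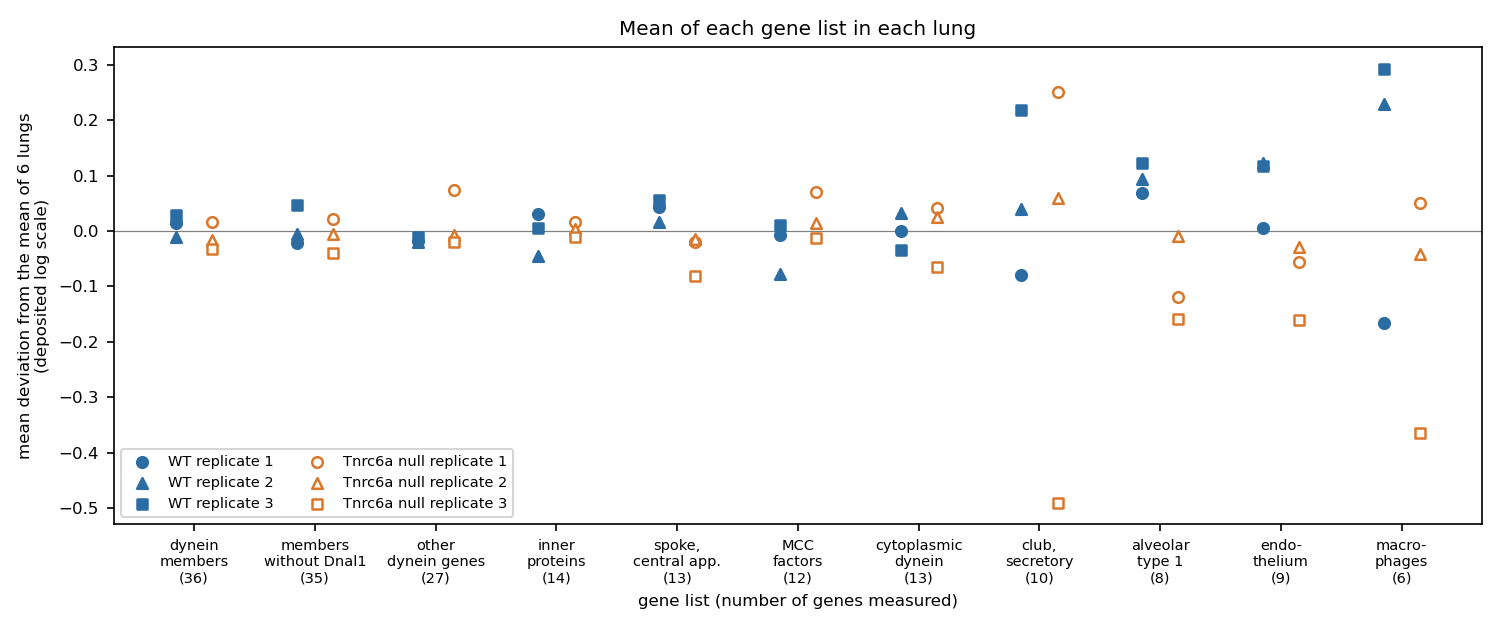
Mean deviation, in deposited log units, from each gene's average over the 6 lungs, for the dynein genes with and without *Dnal1* and for 9 comparison lists, with the number of genes measured in brackets. Filled blue symbols are WT lungs and open orange symbols *Tnrc6a* null lungs, with shapes for the replicate. The dynein genes stay within 0.05 of 0 in every lung, and so do the other inner proteins of the doublet. Club, alveolar type 1, endothelial and macrophage genes spread more widely, but these are means of only 10, 8, 9 and 6 genes, against 36.

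Markers of several other lung cells had median differences farther from 0 than the dynein genes. Signal differed as well. Endothelial and most alveolar type 1 and mesenchymal markers lay in bin 10, where the median difference of all genes was -0.063. Macrophage markers lay in bins 5 to 8. No bin median was taken off the values below. Alveolar type 1 markers were lower in 8 of 8, with a mean level of 9.29 to 9.34 over WT and 9.06 to 9.21 over null lungs. Endothelial markers were lower in 8 of 9, at 8.99 to 9.11 in WT and 8.83 to 8.96 in null lungs. Macrophage markers were lower in 6 of 6, at 5.73 to 6.19 in WT and 5.53 to 5.94 in null lungs. Mesenchymal and smooth muscle markers were lower in 8 of 9, at 8.63 to 8.65 in WT and 8.49 to 8.53 in null lungs. Club and secretory markers were lower in 7 of 10, at 6.41 to 6.71 in WT and 6.00 to 6.74 in null lungs, with null replicate 3 lowest. Alveolar type 2 markers were lower in 5 of 9, with mean levels of 9.82 to 10.2 over the 6 lungs, as in lung tissue. Basal cell markers were lower in 1 of 6, neuroendocrine markers in 1 of 4 measured and red cell markers in 1 of 3 measured. At an unadjusted p under 0.05 were 2 of 8 alveolar type 1, 4 of 9 endothelial, 2 of 6 macrophage, 2 of 9 mesenchymal and 1 of 10 club markers. Of all genes, 5.42% were under that p. No marker passed an adjusted p of 0.05, and the part of these shifts in the members' differences was not tested.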

How the data were processed

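The authors deposited processed values of 6 Affymetrix Mouse Gene 1.0 ST arrays on a scale the labels call log2, 1 value for each of 35045 probe sets and lung. MAS5 is named in the submitters' processing notes, with neither version nor settings. Values were used as deposited. Genotype and replicate came from the sample labels, and every column of values was matched to a sample. Of the probe sets, 21789 carried 1 gene symbol, 1621 several and 11635 none. Through Entrez IDs 21698 were brought to current RefSeq symbols (GRCm38.p6), and the brightest probe set by mean stood for each of 19938 genes, 999 of which had several. Signal over background was not measured, and no dim gene was removed. The number of arrays, 3 a genotype, limits the precision.

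Genes were fitted in R 4.3.3 by limma 3.58.1, using lmFit and a trended eBayes on genotype alone, and p-values were adjusted over all genes after Benjamini and Hochberg, with a threshold of 0.05. Tables, promoter matches and plots were made with Python 3.11.15, pandas 2.3.3, numpy 2.4.6 and matplotlib 3.10.9. The fit was tested on simulated data. The members, role groups and comparison lists were chosen with earlier results of these data known, and lists are described by counts and medians with no test. All measured members are named. Values in every lung are given for the 3 members of each role group with the smallest p, *Tnrc6a* and *Foxj1*, and up to 2 genes of a comparison list with the smallest p may be named. Other normalizations, a filter on signal, the mean of probe sets, other spread models, array weights and the methods' t-test were also run. So were a block of replicate numbers, a block for WT replicate 1 with null replicate 3, and fits without single lungs or without that pair. Motifs were searched on both strands, and 6 members had no promoter listed (*Armc4*, *Dnaaf1*, *Dnah3*, *Lrrc6*, *Spag1* and *Ttc25*).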

Additional observations from a re-analysis of the deposited data

How the results depend on the processing

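No member passed an adjusted p of 0.05 under any of the 18 alternatives, the smallest adjusted p being 0.309. At an unadjusted p under 0.05 the count of members went from 0 to 2 with array weights (*Armc4* and *Dnah7a*, beside 12.3% of all genes). With the methods' t-test it was 2 (*Armc4* and *Ttc25*, beside 5.53%). It was 1 without WT replicate 1 and null replicate 3 together (*Dnaaf1*). Without single lungs it was 0 to 1 (*Dnaaf1* without WT replicate 1, *Dnaic1* without WT replicate 2). For fits without lungs the share of all genes at that p was not counted, so these counts are no result about the members. Members with every null lung higher went from 2 to 0 with quantile normalization or above the median signal only (14 members dropped), 1 with centring, cyclic loess or the mean of probe sets, 6 without that pair of lungs (18.2% of all genes) and 3 to 5 without single lungs (8.04% to 13.9%). Those with every null lung lower went from 2 to 4 without the pair (25.3%) and 2 to 4 without single lungs (7.19% to 18.2%). For the normalizations, the signal filter and the mean of probe sets the share of all genes without overlap was not counted. The moves under those settings are therefore no result about the members. The members' median was -0.045 with centring, which moved the median of all genes by -0.037, 0.015 with the mean of probe sets, and -0.029 to 0.016 without single lungs. Role group medians moved too. The ruler and regulatory complex went from -0.003 to -0.061 with quantile normalization, -0.04 with centring, -0.051 with loess, -0.067 above the median signal, -0.042 with array weights, -0.065 without the pair and -0.05 to 0.083 without single lungs. Docking went from 0.06 to 0.023 with centring, -0.038 above the median signal, 0.027 with weights, -0.0075 without the pair and 0.022 to 0.114 without single lungs. Preassembly went from -0.02 to -0.057 with centring, 0.015 with weights, 0.03 without the pair and -0.043 to 0.037 without single lungs. Outer arm chains went from 0.087 to -0.03 above the median signal, -0.005 without the pair and 0.033 to 0.102 without single lungs. Without single lungs the others ran from -0.031 to 0.035 for inner arm chains, -0.212 to -0.061 for intermediate and light chains and -0.095 to -0.005 for tektins. *Tnrc6a* stayed lower throughout, at -2.01 to -1.81 without single lungs, but was past the threshold neither without WT replicate 3 (-1.96, adjusted p = 0.0552) nor by the methods' t-test (-1.93, adjusted p = 0.551). The cause of these moves was not tested, beyond fewer lungs or genes where these were left out. With the replicate number as a block, 0 members were called (smallest adjusted p 0.95). Same-numbered lungs deviated with correlations of -0.295, 0.361 and -0.162, and the largest of any pair was 0.538, for WT replicate 1 and null replicate 3. In groups of 3 lungs such correlations neither show nor exclude pairs. The labels give no litter for a lung, so litter was not fitted. The 10 members whose difference was at least its SE kept their sign in every alternative, and 22 of the other 26 did not. The alternatives reuse the same lungs, and the split was made on the differences of those lungs. The kept signs are therefore a description and no support for a change.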
